A study of Chlamydomonas reinhardtii with 4 samples.

Results

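Among the transcript models of the green alga Chlamydomonas reinhardtii, 63 of 14557 had a probe so bright before nitrogen starvation that the scanner could not measure it, and measurable at every time point afterwards. A model was included when at least 1 of its 3 probes was saturated in the 0 h channel on all 4 arrays and in the starved channel on none. In all, 87 of 43671 probes met this rule, here called member probes, and 4 further models that met it were left out by name. The members were selected on these saturation flags, that is on the contrast of starved with 0 h cells itself, so the size of every ratio of these models is given as a description with no test.

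Wild type cc3491 was followed at 24, 48, 72 and 96 h in TAP medium, an acetate medium, without nitrogen and under constant light, against 0 h cells in complete TAP medium. The 0 h cells came from cultures that had just reached stationary phase. Each array carried starved RNA in Cy5 and 0 h RNA in Cy3, with 1 array per time point, and the dyes were not swapped. Biological replicates were pooled, and the 0 h RNA served as 1 control sample throughout, so the spread between cultures was not measured and a fixed dye effect of a probe cannot be told apart from a change. A lower ratio in such a culture cannot tell fewer cells with a transcript apart from less of it per cell.

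In an alga growing in light, much of the messenger RNA encodes the photosynthetic apparatus. Light-harvesting proteins of the LHCA family bind chlorophyll around photosystem I, and those of the LHCBM family form the trimeric antenna of photosystem II. Electrons that leave photosystem I reach NADP through ferredoxin and its reductase. The resulting reductant is used in the Calvin-Benson cycle, in which rubisco fixes carbon. These proteins are a large store of cellular nitrogen, and loss of chlorophyll is a well-known response of the alga to nitrogen starvation.

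Saturation limits what the arrays can say about such transcripts. The scanner stops at an intensity of 65529, where all 87 member probes stood at 0 h, so a log2 ratio of starved over 0 h from a member probe understates a decrease and is a lower limit of it. Where a model had another probe that never saturated in either channel and rose above background, that probe gave the ratio itself. This was possible for 48 of the 63 members, through 70 probes, and 15 members had member probes only or other probes that were saturated or dim. On the whole array, 359 to 434 spots were saturated under starvation and 439 to 483 at 0 h. GLN3, a glutamine synthetase (model 136895) and a check of the starved label, stood at a log2 ratio of 5.66.

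There were 380 probes saturated at 0 h on all 4 arrays. Of these, 96 were saturated on none of the starved arrays, counting the models left out, and 197 on all of them. Another 35, 24 and 28 probes were saturated on 1, 2 and 3 starved arrays. In the opposite direction, 43 probes of 36 models were saturated on all starved arrays and on none at 0 h.

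**Figure D1:**
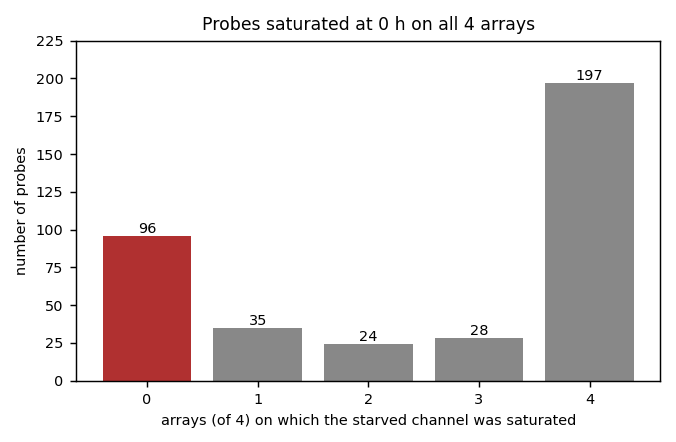
Number of probes saturated at 0 h on all 4 arrays (vertical axis) by the number of arrays on which the starved channel was saturated as well (horizontal axis). The left bar holds the 96 probes that left saturation on every array, and the right bar the 197 that never left it.

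Most members had 1 member probe (44 models), 14 had 2 and 5 had all 3. Member probes lay in slot 1 of the probe naming in 47 cases, in slot 2 in 22 and in slot 3 in 18. Under starvation their raw intensity had a median of 30513, 24869.5, 30382 and 27646.5 at 24, 48, 72 and 96 h. Many of them thus remained bright. An intensity above 50000 was still found for 21, 12, 11 and 11 of the 87 probes at the 4 time points, and the dimmest probes stood at 2606.5, 2490, 1987 and 1066.

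**Figure D2:**
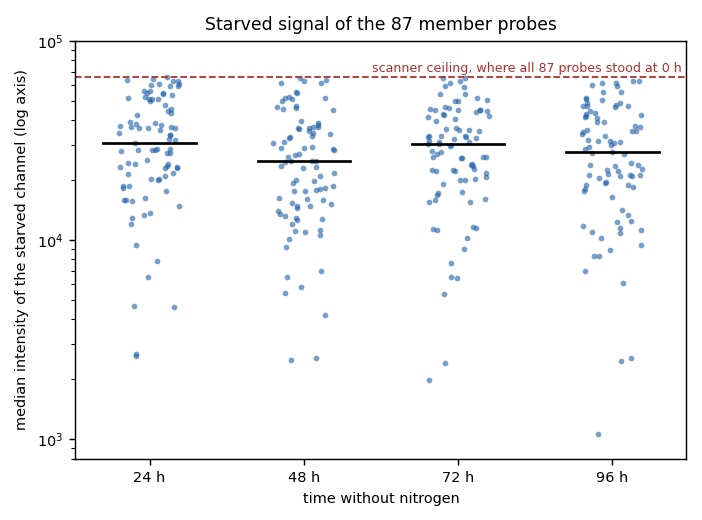
Raw median intensity in the starved channel (log axis) of each of the 87 member probes at 24, 48, 72 and 96 h, with the median as a black line and the scanner ceiling of 65529, where all of them stood at 0 h, as a dashed line. The bulk of the probes lay within a factor of 10 of the ceiling, and the medians ranged from 24869.5 to 30513.

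The unsaturated probes gave ratios without the cap for the same models. Their median log2 ratio over the 48 members was -1.93, -1.75, -1.46 and -1.46 at 24, 48, 72 and 96 h, against 0.05, 0.06, 0.04 and 0.05 over all models with such a probe. Averaged over the time points it was -1.68, with an SD of 0.23 between the 4 medians. An average decrease of at least 2-fold was found for 39 of 48 members, where 6.82% of all models with an unsaturated probe reached it, and 30 of 48 were at least 2-fold lower on all 4 arrays. The rule used this contrast, so a large count is built into the choice of members. At single time points 38, 39, 35 and 34 members were at least 2-fold lower, against 7.71%, 7.31%, 7.34% and 8.25% of all models.

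Models that stayed at the ceiling had a median ratio near 0 in their other probes. Of the models with a probe saturated in both channels on all arrays, 78 had an unsaturated probe, members left out. Their median log2 ratio was 0.17, and 4 of the 78 (5.13%) were at least 2-fold lower. A further 10.3% lay between -1 and -0.5, while 26.9% lay between 0.5 and 1 and 3.85% between 1 and 1.5. These models were chosen for saturation under starvation as well, so a small number of large decreases is built into this group.

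**Figure D3:**
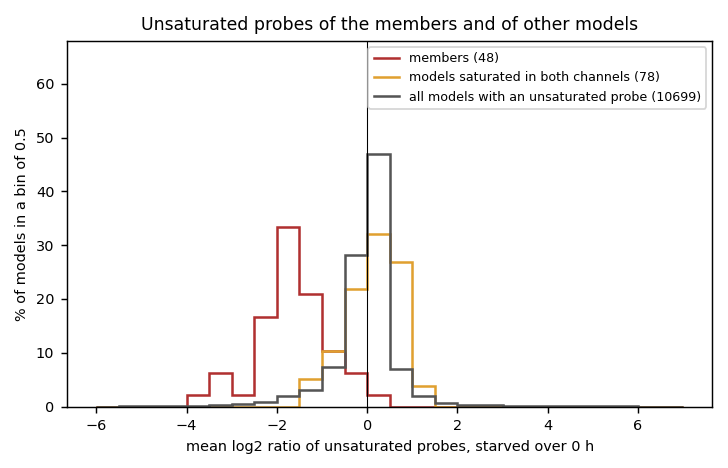
Share of models (vertical axis, % per bin of 0.5) by the mean log2 ratio of their unsaturated probes, starved over 0 h, for the 48 members, for 78 models with a probe saturated in both channels and for all 10699 models with an unsaturated probe. The members peak near their median of -1.68, while the other groups peak near 0.

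The member probes gave smaller decreases, with a median over the 63 models of -1.16 (SD 0.11 between the time points). Their limits reached 2-fold on average in 40 of 63 models, beside 6.72% of all tested models that were at least 2-fold lower on average. For 32 of 48 members the unsaturated probes were lower than the member probes, and for 16 they were higher, against 34 and 14 in the deposited ratios. The median difference, unsaturated minus member probes, was -0.22 on the log2 scale. The probes of 1 model could differ widely in brightness. The unsaturated probes of members had median 0 h intensities between 122.75 and 62589.75, although another probe of the same model was saturated. The brightness of a single probe can therefore not be read as the abundance of its transcript.

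**Figure D4:**
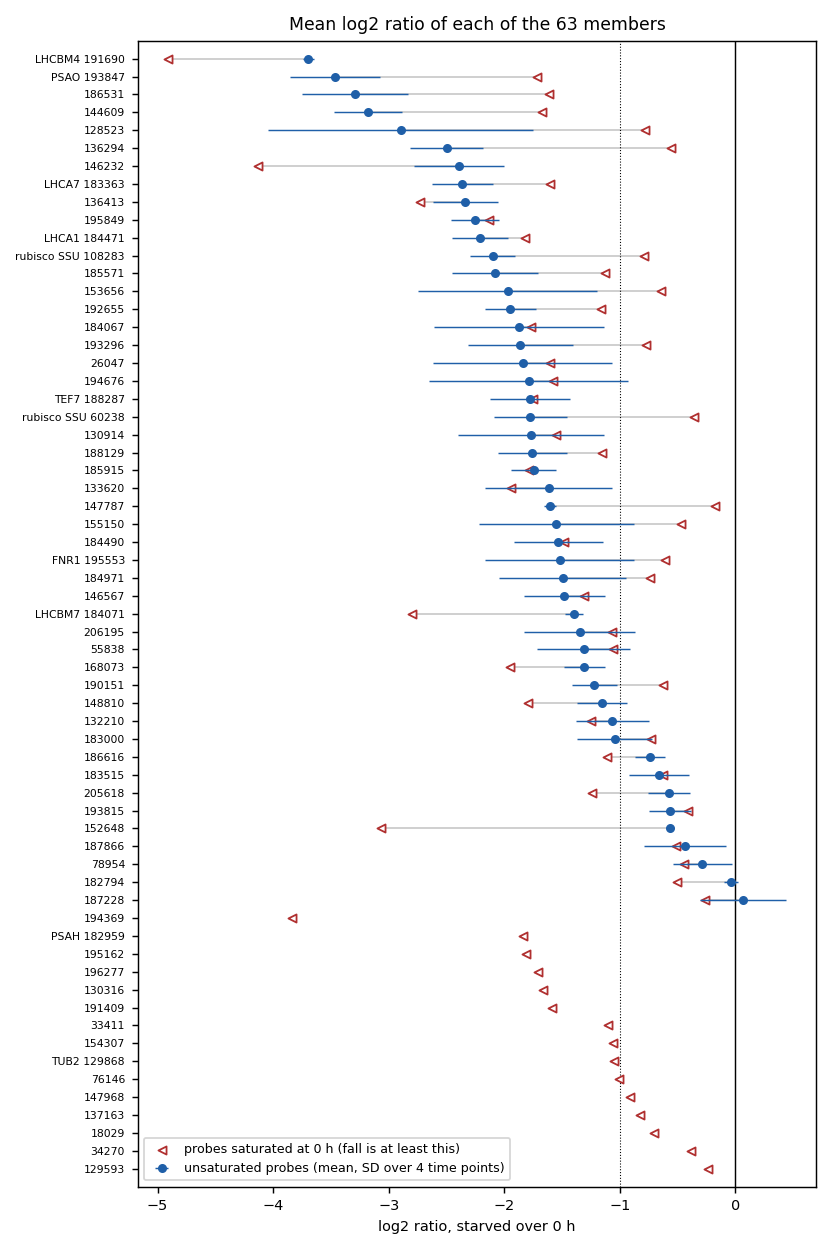
Mean log2 ratio, starved over 0 h (horizontal axis), of each of the 63 members, by symbol and model number where named and by model number otherwise. Filled circles are unsaturated probes with the SD over 4 time points, open triangles are the probes saturated at 0 h and mark the least decrease, and the 15 models at the bottom had no usable unsaturated probe; 39 of the 48 circles lie at or left of the dotted line at -1.

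Names could be given to 11 members, and 9 of these take part in photosynthesis. Most of the names come from a list of genes whose values the study's text gives for sulfur starvation, although the legend of that list names nitrogen starvation, so a member with a name was chosen in part for a response to starvation. The 8 named photosynthesis members with an unsaturated probe had a median log2 ratio of -2.16, between -3.69 and -1.39. The 39 members without a name that had such a probe were at -1.55, between -3.29 and 0.06. Members without a name were not sorted by process and can include genes of photosynthesis. The 2 medians therefore do not compare photosynthesis with other processes.

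The lowest mean ratio belonged to an antenna protein of photosystem II. LHCBM4 (model 191690, locus CHLRE_06g283950v5) had log2 ratios of -3.73, -3.73, -3.70 and -3.62 at 24, 48, 72 and 96 h by its unsaturated probes. The ratio was thus about as low at 24 h as at any later time point. Its member probe in slot 3 stood at -4.91 ± 0.18 (SD, n = 4 time points) and gave a decrease of at least 29.98-fold. The unsaturated probes disagreed in size, at -4.70 ± 0.10 in slot 1 and -2.69 ± 0.18 in slot 2. The slot 1 probe showed 2497 under starvation at 24 h, against 52954 at 0 h, and so spanned most of the range of the scanner.

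LHCBM7 (model 184071, CHLRE_12g548950v5), another antenna protein of photosystem II, was lower by at least 6.96-fold from its member probe in slot 3, with -2.44, -3.29, -2.62 and -2.86 at the 4 time points. Its unsaturated probe gave -1.39 ± 0.08 with the normexp offset of 50 but -3.53 in the deposited ratios, against -2.90 there for the member probe, so which probe was lower depended on the background handling. The unsaturated probe was dim, with 79 under starvation and 228 at 0 h on the 24 h array, and was well above background in the starved channel on only 2 arrays. The probe in slot 1 was saturated at 0 h on all arrays and under starvation on 1, and stood at -0.15. Genes of the LHCBM family are alike in sequence, and how far these probes bind transcripts of each other was not tested.

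The models listed as LHCA7 (183363, CHLRE_16g687900v5) and LHCA1 (184471, CHLRE_06g283050v5) encode light-harvesting proteins of photosystem I. The study's tables give each symbol to a second model as well, so both are identified by model number. The 3 probes of model 183363 are shown because its member probes overlap: the stretch that slots 1 and 2 share is in capitals, written 5′ to 3′ as are all probes here.
LHCA7 probe 1: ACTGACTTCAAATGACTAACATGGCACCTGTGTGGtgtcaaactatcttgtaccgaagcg
LHCA7 probe 2: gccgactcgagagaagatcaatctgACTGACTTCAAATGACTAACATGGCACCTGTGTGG
LHCA7 probe 3: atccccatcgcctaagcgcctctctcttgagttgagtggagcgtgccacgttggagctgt
The overlap spans 35 bases, so slots 1 and 2 are not independent measurements of the transcript. They gave -1.63 ± 0.49 and -1.59 ± 0.62. The slot 3 probe shared no stretch with them and never saturated, and had log2 ratios of -2.61, -2.57, -2.08 and -2.21 at 24, 48, 72 and 96 h.

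For model 184471 the unsaturated probe in slot 2 had log2 ratios of -2.31, -2.50, -1.96 and -2.07 at 24, 48, 72 and 96 h. Both LHCA models followed the same course in their capped probes, lowest at 48 h and highest at 72 h. The capped probes of model 184471 averaged -1.61, -2.54, -1.33 and -1.80 at the 4 time points and those of model 183363 -1.28, -2.30, -1.09 and -1.75.

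Among the named members, photosystem I itself was represented by PSAO and PSAH, small subunits of its core complex. Members without a name were not searched for further subunits. PSAO (model 193847, CHLRE_07g334550v5) was at -2.96, -3.49, -3.47 and -3.91 by its unsaturated probe, the second lowest mean among the members with such a probe. Its member probe in slot 2 was at -0.45 at 24 h and -2.38 at 96 h. At 24 h the raw signal of the member probe was 51434 under starvation, close to the ceiling, against 65529 at 0 h. The probe in slot 1 was saturated on 1 starved array and stood at -0.44. The probes of PSAO thus ordered by brightness, with the smallest ratio in the probe that stayed nearest the ceiling.

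PSAH (model 182959, CHLRE_07g330250v5) was 1 of the 5 members in which all 3 probes met the rule, so the decrease has a lower limit only. The probes are shown because they cover largely different stretches, and capitals mark the short stretch that slots 1 and 2 share.
PSAH probe 1: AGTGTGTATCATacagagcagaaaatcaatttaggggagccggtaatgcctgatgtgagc
PSAH probe 2: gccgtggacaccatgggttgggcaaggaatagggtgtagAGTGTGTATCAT
PSAH probe 3: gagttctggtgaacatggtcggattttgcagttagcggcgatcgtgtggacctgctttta
The shared stretch is 12 bases long. The ratios averaged -1.62 ± 0.52, -1.92 ± 0.31 and -1.84 ± 0.38 in slots 1 to 3, or limits of 3.08-fold, 3.78-fold and 3.59-fold for the decrease. The averages of the probes differed by less than their spread over time. That spread does not measure agreement between probes, which were all read on the same arrays. The average of the 3 probes was -1.79, -2.35, -1.62 and -1.42 at 24, 48, 72 and 96 h, and the highest ratio was that at 96 h.

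FNR1 (model 195553, CHLRE_11g476750v5), the ferredoxin-NADP reductase, stood out among the named members because its ratio was nearest 0 at 96 h. Its probes are given because 2 of them overlap in the stretch in capitals and both were saturated at 0 h.
FNR1 probe 1: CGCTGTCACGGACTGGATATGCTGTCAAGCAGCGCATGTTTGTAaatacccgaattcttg
FNR1 probe 2: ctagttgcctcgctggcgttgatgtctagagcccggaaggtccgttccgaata
FNR1 probe 3: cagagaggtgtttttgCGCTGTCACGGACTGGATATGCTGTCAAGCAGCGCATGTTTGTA
Slots 1 and 3 share 44 bases. The unsaturated probe in slot 2 was at -2.31, -1.33, -1.68 and -0.77 at 24, 48, 72 and 96 h. The member probe in slot 1 was at -1.08, -0.34, -1.04 and 0.04, and its raw signal at 96 h was 62947 under starvation, against 65529 at 0 h. The third probe was saturated on 2 starved arrays. All 3 probes were lower at 24 and 72 h than at 48 and 96 h.

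Both models of the rubisco small subunit, 108283 and 60238, match the same locus (CHLRE_02g120150v5) and may report the same transcript. The unsaturated probes of model 108283 were at -2.38, -2.07, -2.02 and -1.93 at the 4 time points, and that of model 60238 at -2.20, -1.80, -1.46 and -1.65. Both sets were lowest at 24 h. The member probes stood at -0.79 ± 0.13 and -0.36 ± 0.05, which are limits. Slot 3 of model 60238 was saturated throughout, starved and 0 h, and gives no ratio, while the unsaturated probe of the same model gave a 3.42-fold decrease. The RBCS genes of the alga are near-identical copies, so the probes cannot tell them apart with certainty.

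TEF7 (model 188287, CHLRE_03g164000v5) is described in the annotation as a predicted protein only. Its ratios were lowest at 72 h, with -1.50, -1.70, -2.28 and -1.62 by unsaturated probes. The member probe took the same course, at -1.05, -1.91, -2.58 and -1.47.

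TUB2 (model 129868, CHLRE_12g549550v5) encodes a beta tubulin, the building block of microtubules in the cell body and the flagella, and is not a gene of photosynthesis. Its member probe was at -0.13, -1.16, -0.34 and -2.57 at 24, 48, 72 and 96 h. The raw signal under starvation was 63680 at 24 h and 10820 at 96 h, and the other 2 probes were saturated on 1 and 2 starved arrays. All 3 probes were lowest at 96 h, at -2.57, -2.26 and -1.84 in slots 1 to 3.

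**Figure D5:**
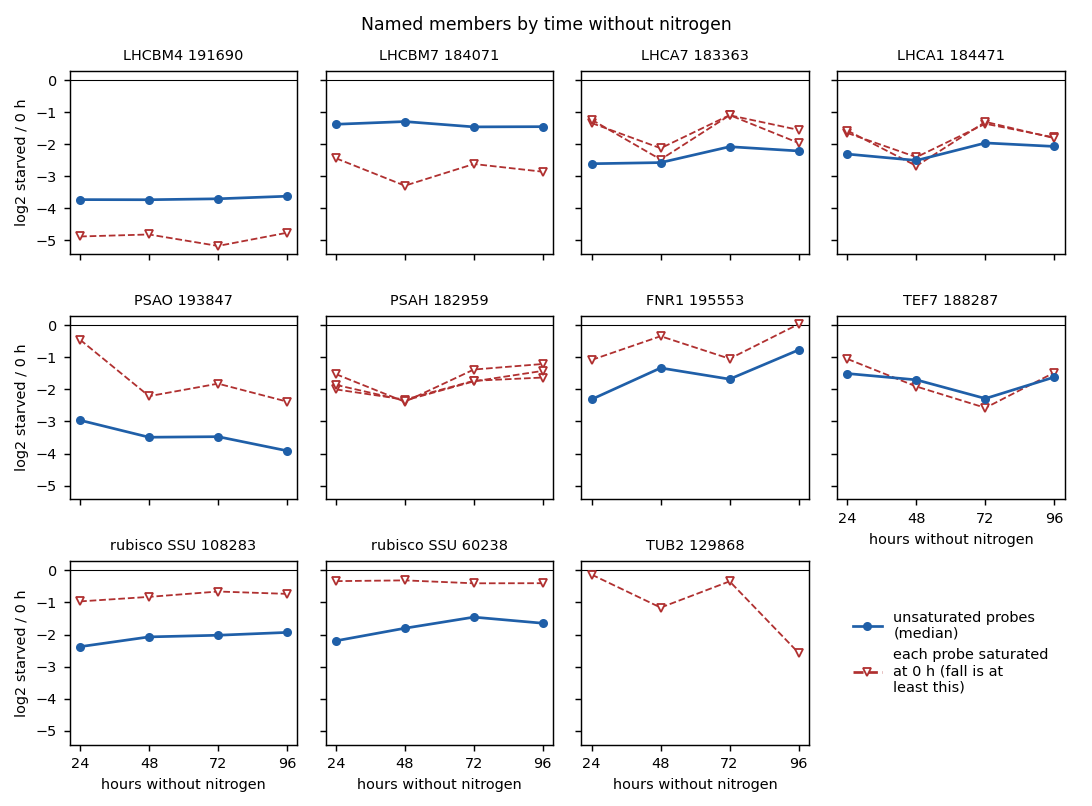
Log2 ratio, starved over 0 h (vertical axis), at 24, 48, 72 and 96 h without nitrogen for the 11 named members. Solid lines are the median of unsaturated probes and dashed lines the single member probes, whose values are limits of the decrease; LHCBM4 lay between -3.73 and -3.62 at all time points and FNR1 between -2.31 and -0.77 in the solid lines.

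Other named genes of the same processes were counted for comparison, with the members left out because they were selected on this contrast. Only the members were removed, not the 4 further models that met the rule and were left out by name. Where such a model is among the genes counted below, light-harvesting models included, its decrease is not independent of the rule. The counts are therefore a description and not a separate test of the members' decrease. The names come from the same list of starvation responses, so the genes do not stand for all genes of their process. Of 4 light-harvesting models all 4 were lower (limma on the mean over time, adjusted p under 0.05 and at least 2-fold, which 6.17% of all 10772 models passed), with a median of -2.97. Both photosystem II models were lower, with a median of -2.01, and both tested models of photosystem I subunits were members. Among the 3 models of the Calvin-Benson cycle 2 were lower, among 2 of electron carriers 1, and so was the 1 model of the chloroplast ATP synthase. The other electron carrier, FDX2, stood at 0.75 and was higher only at an unadjusted limma p under 0.05. Of 26 histone models, all listed as histone H2B, 21 were lower. How far their probes bind transcripts of each other was not tested. Of 8 models of carbonic anhydrases and carbon concentration, limma called 0 in either direction. At an unadjusted p under 0.05, 2 of these were lower and 2 higher, the higher ones being NAR1.2 at 2.25 and LCI28 at 0.74, while CCP1 stood at 2.16 without passing. Of 7 models of translation factors, limma called 0, with 2 lower and 0 higher at an unadjusted p under 0.05. The list for mitochondrial respiration was formed by symbol and also took in CYC6 at -0.50, a cytochrome c6 of the chloroplast. Of its 4 models, limma called 1 higher, COX16 at 1.15, and 0 lower, with 1 lower at an unadjusted p under 0.05. These counts are therefore not of mitochondrial genes alone. Chaperones had 1 of 6 models called higher, CDJ4 at 1.60, and 0 lower, with 3 lower at an unadjusted p under 0.05. Of 3 models of chlorophyll synthesis and 3 of plastid ribosomal proteins, limma called 0, with 0 at an unadjusted p under 0.05.

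The largest decreases among members without a name were followed in the 10 models with a matched locus and the lowest unsaturated ratios. Model 186531 (CHLRE_02g082500v5) had log2 ratios of -3.56, -3.78, -2.81 and -3.02 at 24, 48, 72 and 96 h. Model 144609 (CHLRE_12g508750v5) was at -3.17, -3.58, -2.89 and -3.06. Both were lowest at 48 h. The sequences of model 144609 are printed because its 3 probes share no stretch and differ clearly in their ratio.
model 144609 probe 1: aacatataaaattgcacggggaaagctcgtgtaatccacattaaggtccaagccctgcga
model 144609 probe 2: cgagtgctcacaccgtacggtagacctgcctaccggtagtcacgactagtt
model 144609 probe 3: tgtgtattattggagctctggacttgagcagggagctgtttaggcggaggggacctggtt
The member probe in slot 1 gave -1.68 ± 0.61, a lower limit. Slot 2 gave -3.84 ± 0.24 and slot 3 -2.52 ± 0.38. The probe with the lowest ratio had raw signals of 261 under starvation and 2543 at 0 h at 24 h, and slot 3, at 10514 under starvation and 57663 at 0 h, came close to the ceiling without reaching it.

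Model 146232 (CHLRE_01g013700v5) had the second lowest value after LHCBM4 when the member probes of each model were summarised by their median, although 1 of the 3 member probes of model 194369 was lower still. It showed a decrease of at least 17.5-fold with -4.91, -4.78, -3.42 and -3.42 at the 4 time points. Its slot 2 probe, unsaturated, was at -4.77, -4.42, -3.50 and -3.48. The capped and the uncapped probe therefore took the same course. The slot 3 probe was dim, not well above background under starvation on any array, and averaged -0.74, or -3.09 in the deposited ratios.

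Several of these models differed between early and late time points. Model 128523 (CHLRE_03g190950v5) was at -1.36, -3.17, -2.93 and -4.13 in the same order, with the lowest value at 96 h of any unsaturated set. Model 184067 (CHLRE_12g548400v5) was at -0.87, -2.10, -1.88 and -2.63. Model 153656 (CHLRE_08g372450v5) ran the other way. Its ratio was -2.99, -2.15, -1.30 and -1.45 at 24, 48, 72 and 96 h, and the raw signal of its member probe was 27329 under starvation at 24 h and 55196 at 96 h. Model 185571 (CHLRE_12g495951v5) was at -2.49, -2.30, -1.83 and -1.71. The remaining 3 models varied less between the time points. Models 136294 (CHLRE_07g344950v5), 195849 (CHLRE_01g026450v5) and 192655 (CHLRE_12g521300v5) averaged -2.50 ± 0.32, -2.25 ± 0.21 and -1.95 ± 0.22.

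At the other end were members whose member probes had moved least from the ceiling. These were models 147787 (CHLRE_14g626700v5), 129593 (CHLRE_03g204250v5), 187228 (CHLRE_06g257500v5), 60238 and 34270 (CHLRE_06g284900v5), with mean log2 ratios of -0.18, -0.24, -0.26, -0.36 and -0.39. The unsaturated probes told these models apart. Model 147787 was at -1.60, -1.53, -1.66 and -1.63 by its unsaturated probe, which was dim at 136 under starvation and 374 at 0 h on the 24 h array and averaged -2.49 in the deposited ratios. Model 187228 was at -0.45, 0.08, 0.43 and 0.19 and was the only member whose unsaturated probes averaged above 0. Model 129593 had no probe free of saturation, and its member probes averaged -0.54, 0.01, -0.27 and -0.16. The slot 2 probe of model 34270, saturated at 0 h on 2 arrays, averaged -1.39.

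Model 152648 (CHLRE_11g468750v5), chosen after its values were seen, had the widest disagreement in the opposite direction. Its member probe was at -3.27, -3.56, -2.94 and -2.51, whereas its unsaturated slot 2 probe stayed between -0.59 and -0.52. The slot 2 probe was dim, at 66 under starvation and 144 at 0 h on the 24 h array, and was well above background in the starved channel on 1 array only. In the deposited ratios it averaged -2.49, against -3.07 for the member probe, and the disagreement was no longer the widest. In all, 9 of 48 members had unsaturated probes less than 2-fold lower on average, a count that includes dim probes such as that of model 152648.

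The 15 members without a usable unsaturated probe are known by limits alone. Model 194369 (CHLRE_08g372200v5), also chosen after its values were seen, had the lowest of these. Its slot 2 probe was at -4.07, -4.04, -4.88 and -6.00 at 24, 48, 72 and 96 h and its slot 1 probe at -3.54, -3.38, -3.71 and -4.70, which put the average decrease at 26.8-fold or more and 14.3-fold or more. Slot 3 gave a limit of 5.81-fold. All 3 probes were lowest at 96 h. The other 14 had mean capped ratios between -1.84 for PSAH and -0.24 for model 129593.

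A measure of technical error came from 3 members that were also printed as 7 further spots of 1 probe per array. For model 147968 (CHLRE_12g546150v5) these spots were saturated at 0 h and not under starvation, like its member probe. They averaged -1.89, -1.15, -0.54 and -0.39 at 24, 48, 72 and 96 h over 6 spots with a value, with an SD between spots of 0.21, 0.17, 0.18 and 0.23. The member probe in slot 1 stood at -1.85, -0.85, -0.55 and -0.39. The spots of models 184971 and 76146 were less informative. At 24 h all 7 spots of both were saturated in both channels, although the member probes were not under starvation, and the repeated spots of model 76146 left saturation in full only at 48 h, at -0.94 ± 0.12 (SD of 7 spots).

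The rule has a sharp edge. Among the probes just inside it, the brightest under starvation were those of models 128523, 155150 and 129593, with maxima of 65479, 65065 and 65016 and mean ratios of -0.78, -0.47 and -0.40. Just outside, 35 probes of 30 models were saturated on 1 starved array, 21 of these models not being members. Their mean ratios, which include the array saturated in both channels, had a median of -0.38, between -1.59 for a probe of model 184308 and -0.06 for model 134235. A further 12 probes were saturated at 0 h on 3 arrays and never under starvation, 10 of their 12 models not being members. These had a median of -1.23, between -2.80 for model 183928 and -0.19 for model 133008. Model 187415, at -0.56, had a starved maximum of 65488.5.

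The order of the time points was the one property of the ratios that the rule did not use, so the members could be tested for a linear trend. All models were fitted with limma, with Benjamini-Hochberg adjustment over 10772 models, and a negative slope means a ratio lower at later times. The p-values measure only the spread between the time points around the fitted line. Trends with an adjusted p under 0.05 were found for 0 of 63 members, where 0.139% of all models fell and 0.00928% rose. The smallest adjusted p of a member was 0.067, for model 191409 (CHLRE_09g394065v5, chosen after its values were seen), with a slope of -1.01 ± 0.09 (SE) per 24 h. At an unadjusted p under 0.05, 8 members (12.7%) had a negative slope and 12 (19.0%) a positive one, against 7.45% and 5.38% of all models. Members have a capped and therefore constant 0 h signal in part of their probes, and its part in these shares was not tested. With saturated probes left out, the shares were 10.4% and 25.0% of 48 members.

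The course of model 191409 was the steepest of the members. Its member probe was at -0.23, -0.83, -2.08 and -3.22 at 24, 48, 72 and 96 h, with raw signals of 59386 under starvation at 24 h and 6988 at 96 h. Slot 2, saturated at 0 h on 3 arrays, was at -0.24, -0.87, -1.94 and -3.47. With the normexp offset set to 1 its trend passed (limma adjusted p = 0.047).

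The trend calls changed with the array left out. Without the 72 h array 5 members passed, with 1.23% of all models falling and 0.548% rising. TUB2 and model 191409 fell, at -0.72 ± 0.06 and -1.02 ± 0.09 (SE) per 24 h (limma adjusted p = 0.012 and 0.013). Models 130316, 146232 and 153656 rose, at 0.49, 0.46 and 0.44 per 24 h (limma adjusted p = 0.029, 0.037 and 0.044). Such a fit has 1 residual degree of freedom per model. Without the 24, 48 or 96 h array 0 members passed, with 8, 19 and 22 of 63 members at an unadjusted p under 0.05. Among all 10772 models the counts at this threshold were 411, 1057 and 1495. Over all 63 members 35 slopes were positive and 28 negative, with a median of 0.05 per 24 h.

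The members were spread over the genome. Of the 59 members with a locus, 9 each lay on chromosomes 3 and 12 and 6 each on chromosomes 1 and 6. Some were close neighbours in the RefSeq gene order. Models 194369 and 153656 on chromosome 8 had 4 genes between them, and models 34270 and 184490 on chromosome 6 had 6. Their time courses differed, since the ratio of model 194369 was lowest at 96 h and that of model 153656 at 24 h. On chromosome 12, TUB2 and LHCBM7 had 12 genes between them, and LHCBM7 and model 184067 had 11. On chromosome 6, LHCA1 and LHCBM4 had 18.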

How the data were processed

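Total RNA of strain cc3491 was measured on 4 Agilent arrays, all on 1 slide, with probes designed on JGI 3.1 models. Per the file headers, the deposited files hold the output of Agilent Feature Extraction 10.7.3.1, with spot and background intensity as the median over pixels and flags for background and saturation. The deposited log10 ratio was computed by the authors' software from dye-normalized signals and was identical to the values of the series table. The study's further lowess values were not used here, nor its tables of changes.

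The median intensities were background-corrected by normexp with an offset of 50, and ratios were normalized by loess (span 0.3, 4 iterations) in R 4.3.3 with limma 3.58.1, as log2 of starved over 0 h. A probe was kept when well above background in Cy5 or in Cy3 on all 4 arrays, and models were summarised by the median over kept probes. The mean over time was tested against 0, and a linear trend per 24 h was fitted, with Benjamini-Hochberg adjustment. The scripts were tested on simulated data. The number of arrays limits the precision.

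Members and gene lists were chosen with earlier results of these data known. Values are given for members in the lists, for up to 10 further members with a locus and the lowest unsaturated ratios, for the 5 whose member probes moved least and for models at the edge of the rule. Loci come from RefSeq old locus tags, which matched 58 members (59 with any locus). Names found for 7 members only in a table of the study with disagreeing identifiers were not used. Probe sequences are those of the study's design table. The alternatives were other normalizations, background corrections, filters, probe sets and member rules, and leaving out each array.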

Additional observations from a re-analysis of the deposited data

Results flagged for a closer look

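Several probes named outside the scheme of 3 slots per model, and used in no comparison above, also met the rule, being saturated at 0 h throughout and never under starvation. The custom probes of 1 design set, CUST_1, CUST_2 and CUST_3, averaged log2 ratios of -1.86, -1.81 and -1.94, and a probe of another set, CUST_8, averaged -0.48. Their genes are not given in the sources used here. The first 3 took the same course, lowest at 48 h, at -2.57, -2.54 and -2.60. Of 7 repeated spots of model 177155, 1 met the same condition, at -0.58, while the mean over all 7 spots was -0.17.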

How the results depend on the processing

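The median log2 ratio of the member probes, -1.16, stayed between -1.23 and -1.12 under other normalizations, background corrections and probe sets, and between -1.23 and -1.15 when an array was left out. The median of the unsaturated probes, -1.68, stayed between -1.82 and -1.54 under those settings and between -1.71 and -1.62 without an array. The count of members at least 2-fold lower by unsaturated probes lay between 37 and 39 of 48 without an array, was 41 with the deposited ratios and was 38 with median centring. Both medians moved by more than their spread when members could be saturated on 1 starved array, to -0.95 over 84 models and -1.39 over 67 models. Over all models, 665 were lower, 134 with the Holm adjustment. The 16 trend calls became 41 with a normexp offset of 1, 25 with slots 1 and 2 only and 25 with the mean of probes, and lay between 0 and 192 when an array was left out, 192 being without the 72 h array; the cause was not tested. No paired analysis was possible because each time point had 1 array. Every ratio of a member probe is a limit. On an array where a probe was saturated in both channels its ratio is not a limit either. Means of other probes over such arrays, as for slot 1 of LHCBM7 and of PSAO, are not limits. Ratios of dim probes such as those of LHCBM7 and model 152648 are pulled towards 0 by the offset.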
